A study of Equus caballus with 23 samples.

Results

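Genes of fatty acid and fat synthesis and of fat cells were followed in RNA sequencing of gluteus medius biopsies from Arabian horses in race training. The gluteus medius is a large locomotor muscle of the hindquarter. A list of 10 symbols was used: SCD, FASN, ACACA, ACLY, ELOVL6, DGAT2, PLIN1, ADIPOQ, FABP4 and SREBF1. A gene entered when the authors' tables paired its symbol with an identifier, which was so for 8 of the 10 symbols, out of 26991 genes in the count table. ELOVL6 and PLIN1 had no identifier under those symbols and were not analysed here. All 8 others passed the filter on low counts, which kept 11545 genes in all.

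Biopsies came from 3 time points of training. At T0 the horses were untrained and aged 2.5 years, and 5 libraries were made, 3 from males and 2 from females. T1 held 8 libraries taken after the phase of intense gallops, ahead of the flat racing season, from horses aged 3 years, with 4 of each sex. T2 held 10 libraries taken when the racing season ended, also at an age of 3 years, 7 from males and 3 from females. Libraries are numbered m1 to m23. Whether any horse gave several biopsies cannot be read from the labels, so libraries were compared unpaired, and p-values measure only the spread between libraries. Age was 2.5 years only in T0, so age and training cannot be told apart in comparisons with T0.

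New fatty acids are built in the cytosol from citrate that leaves the mitochondria. ACLY splits citrate into acetyl-CoA, ACACA turns acetyl-CoA into malonyl-CoA, FASN joins these units into palmitate, and SCD puts a double bond into the saturated chain. DGAT2 adds the last fatty acid of a triglyceride, SREBF1 encodes the transcription factor SREBP-1 that drives lipogenic genes, ADIPOQ encodes the hormone adiponectin that fat cells secrete, and FABP4 encodes a fatty acid carrier that is abundant in fat cells and also made by capillary endothelium. Liver and fat tissue are the usual places of this synthesis, and muscle lies beside fat cells that run between its fibre bundles. In whole biopsies, fewer cells of a type and less RNA per cell cannot be told apart.

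The depth of a library was 12604125 to 17477172 counts at T0, 15417737 to 23641809 at T1, and 12185608 to 19804694 at T2. Mitochondrially encoded genes took 36.0% to 55.0% of the counts of a T0 library, 44.7% to 56.7% in T1 and 42.5% to 52.3% in T2. Skeletal muscle fibre markers, 8 genes, summed to between 38300 and 113600 CPM in every library, so the defining markers of the labelled tissue were present. CPM here are counts relative to the library size after TMM scaling. Libraries also differed in fibre type genes: a score of slow minus fast fibre genes (difference of mean log2 CPM) lay between -4.32 and -2.06 in T0, between -0.99 and 5.43 in T1 and between -3.68 and -1.29 in T2, so T1 did not overlap the others. The T0 library m12 had a TMM scaling factor of 0.749, against 1.06 to 1.45 in the other 4 T0 libraries.

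DGAT2 was higher in T1 than in both T0 and T2, and both calls held in every fit that left out 1 library. The 4 enzymes that make and desaturate fatty acids, ACLY, ACACA, FASN and SCD, passed the test as lower in T2 than in T0, and ACACA also fell between T1 and T2. Of these 4, only ACACA was still called in T2 minus T0 without the T0 library m10. ADIPOQ, FABP4 and SREBF1 passed the test in no comparison of time points. The plot of every library by gene shows these levels, and the plot of log2 fold changes shows the comparisons.

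**Figure D1:**
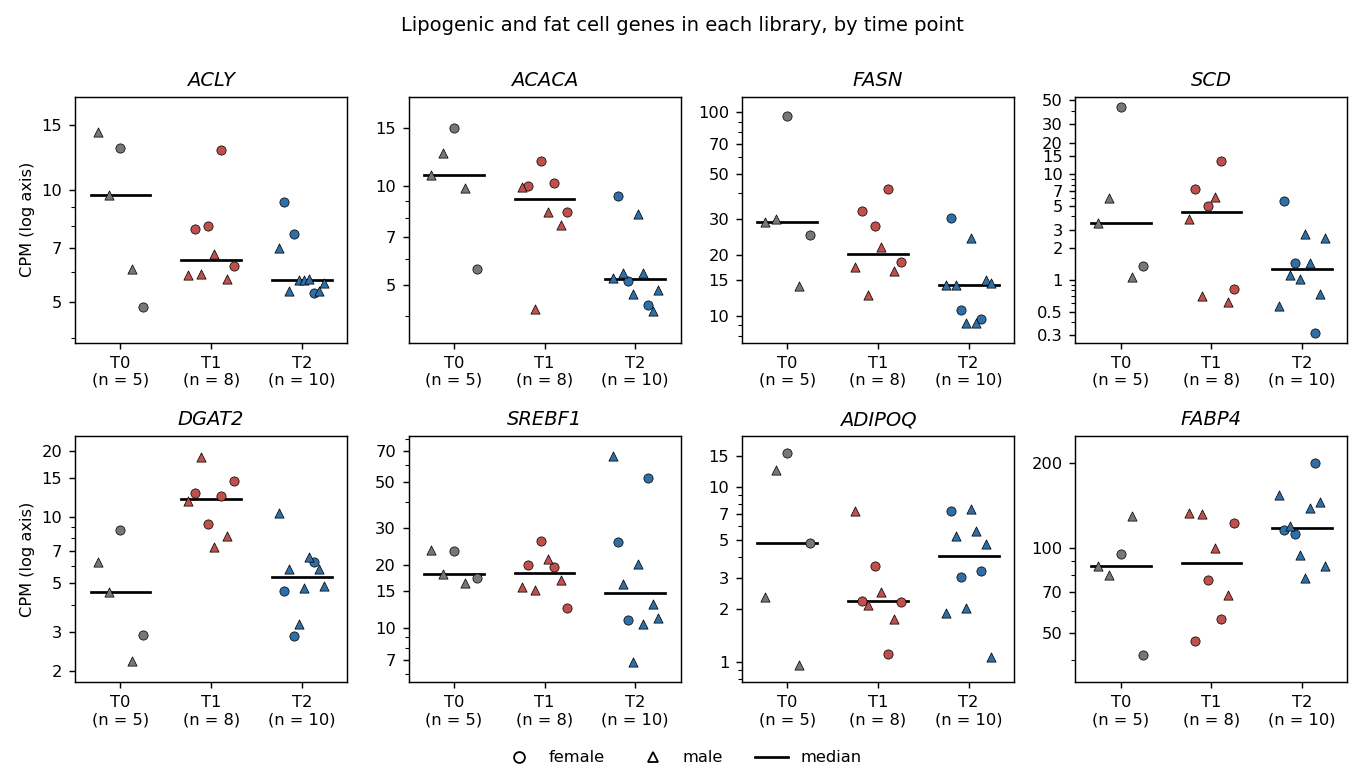
CPM on log axes for the 8 genes in each library of T0 (n = 5), T1 (n = 8) and T2 (n = 10); circles are female, triangles male, and the black bar is the median. DGAT2 is highest in T1, where its median is 12.1 CPM against 4.56 in T0 and 5.33 in T2, and SREBF1 has 2 T2 libraries far above the rest, at 66.1 and 51.8 CPM.

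Of the 8 genes, 4 were called in T2 minus T0, all lower, where 16% of all tested genes were called, 6.73% higher and 9.3% lower. The median log2 fold change of the 8 genes was -0.72, and that of all tested genes was -0.04. In T2 minus T1, 2 of the 8 were called, both lower, beside 27.6% of all genes, 12.6% higher and 15.1% lower, so the share of the 8 genes was near the background there. In T1 minus T0, 1 of the 8 was called, higher, beside 6.91% of all genes, 3.57% higher and 3.34% lower. The medians of the 8 genes were -0.44 and -0.33 in these comparisons, and those of all genes were -0.01 and -0.02. The 3 comparisons share libraries, so their counts are not independent of each other.

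**Figure D2:**
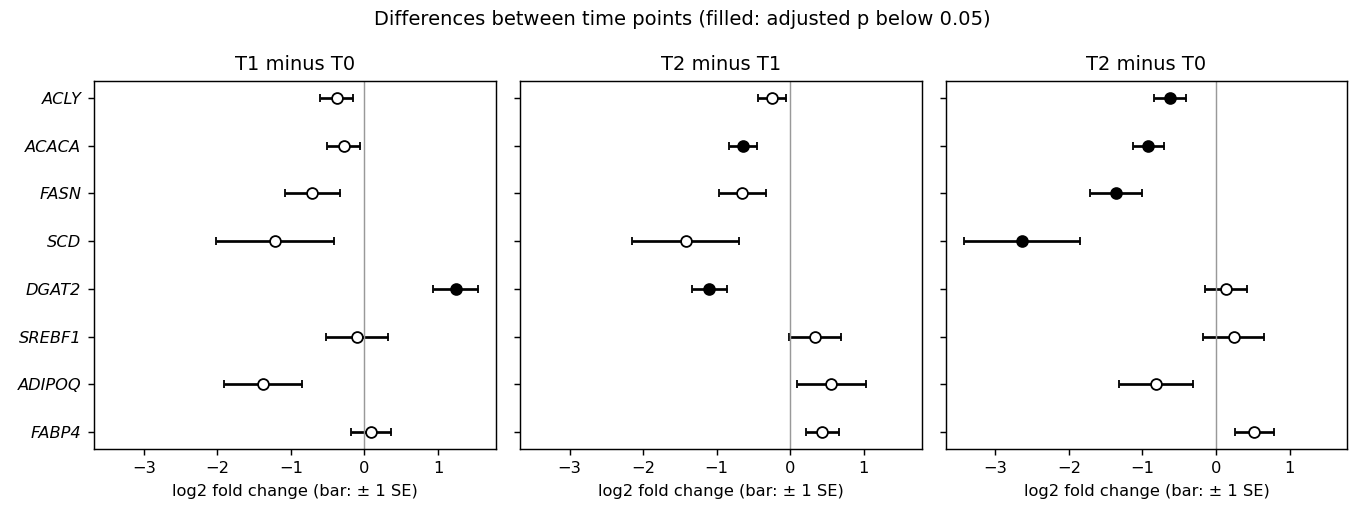
Log2 fold change of each gene in T1 minus T0, T2 minus T1 and T2 minus T0, with bars of 1 SE; filled points passed an adjusted p of 0.05. The filled points are DGAT2 in T1 minus T0, DGAT2 and ACACA in T2 minus T1, and ACLY, ACACA, FASN and SCD in T2 minus T0.

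ACLY, the citrate lyase that opens the route (ENSECAG00000009702, chromosome 11, 20936825 to 20971950 in the authors' tables, whose genome build the sources used here do not name), had 14.3, 9.69, 13, 6.15 and 4.84 CPM in the T0 libraries m8, m9, m10, m12 and m13. It ranged from 5.74 to 12.8 CPM in T1 with a median of 6.49, and from 5.27 to 9.28 CPM in T2 with a median of 5.72. The groups overlapped, since the T0 library m12 lay within the range of T2 and m13 below all of T2. The log2 fold change was -0.62 ± 0.21 (SE) in T2 minus T0, with an adjusted p of 0.0464 by edgeR's quasi-likelihood test with Benjamini-Hochberg adjustment over all tested genes. It was -0.38 ± 0.22 in T1 minus T0 (adjusted p = 0.335 by the same edgeR test) and -0.25 ± 0.19 in T2 minus T1 (adjusted p = 0.351). The call in T2 minus T0 was close to the threshold: it held in 7 of 23 edgeR fits that each left out 1 library, and the adjusted p rose to 0.228 without m8, 0.169 without m10 and 0.0924 without m9. The authors' deposited table gives -0.56 for T2 minus T0 (adjusted p = 0.0211, DESeq2).

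ACACA, acetyl-CoA carboxylase 1, makes the malonyl-CoA that FASN uses (ENSECAG00000010631, chromosome 11, 36309314 to 36537436). It had 10.8, 12.6, 14.99, 9.86 and 5.57 CPM in m8, m9, m10, m12 and m13 of T0. In T1 it ranged from 4.21 to 11.96 CPM with a median of 9.15, and in T2 from 4.15 to 9.33 CPM with a median of 5.20. Levels stepped down over the time points, and 8 of the 10 T2 libraries lay below every T0 library. ACACA fell by 0.92 ± 0.21 on the log2 scale between T0 and T2 (edgeR adjusted p = 0.00761) and by 0.64 ± 0.19 between T1 and T2 (edgeR adjusted p = 0.0147). The difference in T1 minus T0 was -0.28 ± 0.22 with an edgeR adjusted p of 0.515 and a 95% interval of -0.72 to 0.16. Both calls held in all 23 fits that left out 1 library, with log2 values between -1.08 and -0.75 in T2 minus T0 and between -0.75 and -0.56 in T2 minus T1. In the authors' deposited table the log2 fold changes were -0.81 for T2 minus T0 (adjusted p = 0.000733, DESeq2) and -0.60 for T2 minus T1 (adjusted p = 0.00235, DESeq2).

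FASN, fatty acid synthase (ENSECAG00000019125, chromosome 11, 1136469 to 1153213), had 28.9, 29.9, 95.5, 14.1 and 25.1 CPM in m8, m9, m10, m12 and m13 of T0. T1 ranged from 12.6 to 42.1 CPM with a median of 20.2, and T2 from 9.21 to 30.2 CPM with a median of 14.2. The library m10 stood far above the other T0 libraries, and the medians decreased from T0 to T1 to T2. FASN was 2.57-fold lower in T2 than in T0, a log2 fold change of -1.36 ± 0.36 with an edgeR adjusted p of 0.0159. T1 minus T0 gave -0.71 ± 0.38 (edgeR adjusted p = 0.286) and T2 minus T1 gave -0.65 ± 0.32 (edgeR adjusted p = 0.136). Without m10 the T2 minus T0 value was -0.68 with an edgeR adjusted p of 0.155, and the call held in the 22 other fits that left out 1 library. The authors' deposited table gives -0.88 for T2 minus T0 (adjusted p = 0.00828, DESeq2).

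SCD, stearoyl-CoA desaturase (ENSECAG00000014658, chromosome 1, 29436588 to 29447574), had the largest SD of log2 CPM among the 8 genes at each time point, 2.09 in T0, 1.64 in T1 and 1.08 in T2. It had 3.48, 5.99, 43.5, 1.06 and 1.35 CPM in m8, m9, m10, m12 and m13 of T0, where m10 was 41.1 times m12. T1 ranged from 0.619 to 13.4 CPM with a median of 4.39, and T2 from 0.316 to 5.58 CPM with a median of 1.28. These levels rest on few reads, from 6 counts in m21 to 827 in m10. SCD was 6.23-fold lower in T2 than in T0, a log2 fold change of -2.64 ± 0.79 with an edgeR adjusted p of 0.0289. T1 minus T0 gave -1.22 ± 0.80 (edgeR adjusted p = 0.408) and T2 minus T1 gave -1.42 ± 0.73 (edgeR adjusted p = 0.154). Without m10 the value in T2 minus T0 was -0.75 ± 0.72 with an edgeR adjusted p of 0.518, and T1 minus T0 turned to 0.66. The T2 minus T0 call held in 6 of 13 other settings, and with sex as a covariate the edgeR adjusted p was 0.059. The fold change of SCD was therefore set largely by 1 T0 library, while 4 of the 10 T2 libraries lay below every T0 library.

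The library m10 was the highest of T0 in SCD, FASN, ACACA, DGAT2 and ADIPOQ, and m12 was the lowest in SCD, FASN, DGAT2, ADIPOQ and SREBF1. Without both, 1 of the 8 genes was called in T2 minus T0, namely ACACA, as it was without m10 alone. The plot of fits that leave out 1 library shows which values move.

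**Figure D3:**
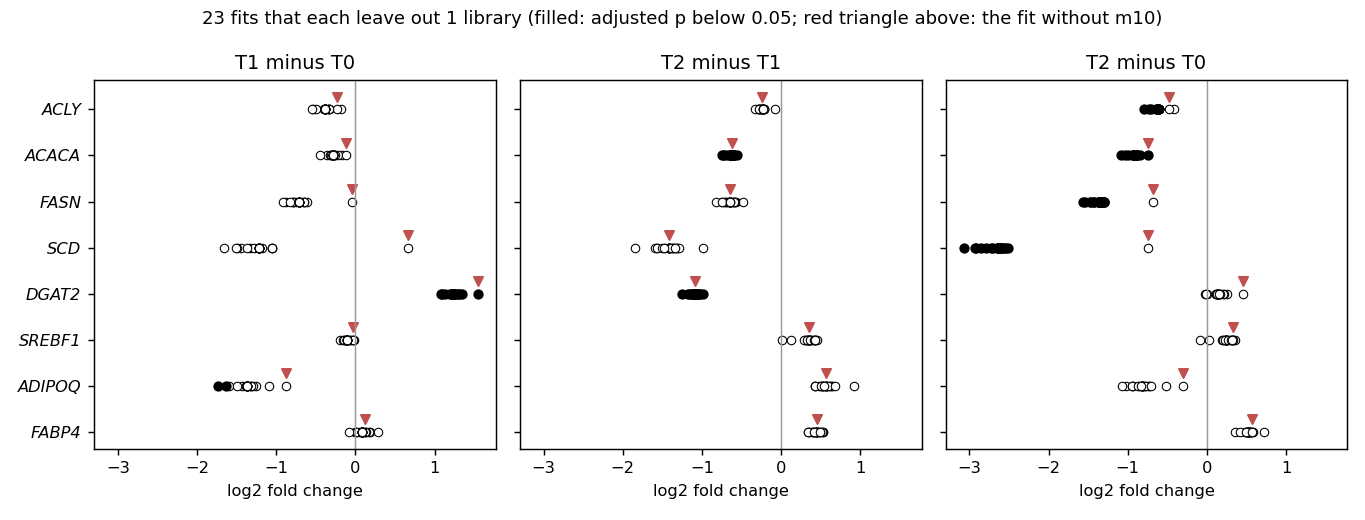
Log2 fold changes in 23 fits that each leave out 1 library, 1 circle a fit; filled circles passed an adjusted p of 0.05, and the red triangle marks the fit without m10. For SCD in T2 minus T0 the fit without m10 sits at -0.75 and the others reach -3.07, while ACACA in T2 minus T0 stays filled in all 23 fits.

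DGAT2, diacylglycerol acyltransferase 2, closes triglyceride synthesis (ENSECAG00000024847, chromosome 7, 68413959 to 68430511). It had 6.23, 4.56, 8.73, 2.23 and 2.92 CPM in m8, m9, m10, m12 and m13 of T0. In T1 it ranged from 7.33 to 18.7 CPM with a median of 12.1, and in T2 from 2.89 to 10.45 CPM with a median of 5.33. T1 stood above both other time points: 6 of its 8 libraries exceeded every T0 library, and 9 of the 10 T2 libraries lay below every T1 library. DGAT2 rose 2.36-fold between T0 and T1, a log2 fold change of 1.24 ± 0.30 with an edgeR adjusted p of 0.0153. It fell by 1.10 ± 0.24 on the log2 scale between T1 and T2 (edgeR adjusted p = 0.00175). T2 minus T0 was 0.14 ± 0.29 with a 95% interval of -0.42 to 0.70 (edgeR adjusted p = 0.767). Both calls held in all 23 fits that left out 1 library, between 1.08 and 1.54 in T1 minus T0 and between -1.25 and -0.98 in T2 minus T1. The authors' deposited table gives 0.98 for T1 minus T0 (adjusted p = 0.000416, DESeq2) and -1 for T2 minus T1 (adjusted p = 2.28e-06, DESeq2).

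Slow fibre genes moved over the time points as DGAT2 did. All 10 genes of a slow fibre list were called higher in T1 than in T0 and lower in T2 than in T1. All 10 genes of a fast fibre list had negative values in T1 minus T0, with 4 called. In T2 minus T1 all 10 fast fibre genes were called higher. Beside them, 6.91% of all genes were called in T1 minus T0 and 27.6% in T2 minus T1. With the slow minus fast score as a covariate, chosen after seeing the data, the DGAT2 log2 fold change was 0.67 ± 0.39 in T1 minus T0 (edgeR adjusted p = 0.514) and -0.61 ± 0.32 in T2 minus T1 (edgeR adjusted p = 0.175). In that fit 2 of the 11545 genes were called in T1 minus T0, and since the scores of T0 and T1 did not overlap, fibre type and time point cannot be told apart there. Without m3 and m12, DGAT2 in T1 minus T0 was 0.97 ± 0.30 with an edgeR adjusted p of 0.0512.

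SREBF1 (ENSECAG00000019802, chromosome 11, 60062581 to 60070249) had 23.6, 18, 23.2, 16.3 and 17.2 CPM in m8, m9, m10, m12 and m13 of T0. T1 ranged from 12.4 to 25.9 CPM with a median of 18.2, and T2 from 6.84 to 66.1 CPM with a median of 14.6. The wide range of T2 came from m14 at 66.1 CPM and m21 at 51.8 CPM, and the next T2 library, m15, had 25.7 CPM. Differences between time points were small beside this spread: -0.10 ± 0.42 in T1 minus T0 (edgeR adjusted p = 0.927), 0.34 ± 0.35 in T2 minus T1 (0.499) and 0.24 ± 0.41 in T2 minus T0 (0.718). Without m14 and m21 the last value was -0.46. In m21, SCD and ACLY were at their lowest of T2, 0.316 and 5.27 CPM. In m14, SCD had 0.570 CPM, below the median of T2, and ACLY 6.97 CPM, above it. On the log2 scale, FASN and ACACA were at -0.53 and -0.34 from their T2 means in m21. In m14 they were at 0.03 and -0.06. As a description, Pearson's r of SREBF1 with SCD was 0.71 within T0 (n = 5), 0.68 within T1 (n = 8) and -0.33 within T2 (n = 10). With ACLY it was 0.90, 0.49 and 0.20, with FASN 0.73, 0.61 and 0.26, and with ACACA 0.55, 0.53 and 0.16.

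ADIPOQ, the adiponectin gene (ENSECAG00000002962, chromosome 19, 24845990 to 24847646), had 2.33, 12.54, 15.7, 0.954 and 4.78 CPM in m8, m9, m10, m12 and m13 of T0. T1 ranged from 1.11 to 7.25 CPM with a median of 2.22, and T2 from 1.06 to 7.47 CPM with a median of 4.01. A gene made by fat cells was thus read in every library, with counts from 9 in m12 to 298 in m10, and all 3 groups overlapped. T1 minus T0 was -1.38 ± 0.53 (edgeR adjusted p = 0.121), T2 minus T1 was 0.56 ± 0.47 (0.390) and T2 minus T0 was -0.82 ± 0.50 (0.266). The T1 minus T0 value passed the threshold without m1 (edgeR adjusted p = 0.0492) or without m12 (0.0484), and without m10 it was -0.87 with an adjusted p of 0.426.

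FABP4 (ENSECAG00000023645, chromosome 9, 6416478 to 6420707) had 86.7, 80.1, 94.96, 130.2 and 41.7 CPM in m8, m9, m10, m12 and m13 of T0. T1 ranged from 47.0 to 132.9 CPM with a median of 88.8, and T2 from 78.0 to 200.3 CPM with a median of 117.6. FABP4 had its largest median in T2, where 4 of the 10 libraries exceeded every T1 library, but no comparison passed. The log2 fold changes were 0.09 ± 0.27 in T1 minus T0 (edgeR adjusted p = 0.897), 0.44 ± 0.23 in T2 minus T1 (0.151) and 0.52 ± 0.26 in T2 minus T0 (0.172). Under limma voom with sample weights the T2 minus T1 value was 0.64 with an adjusted p of 0.023.

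FABP4 did not follow ADIPOQ between libraries: over 23 libraries, after subtracting the mean of the time point, Pearson's r was 0.06 (permutation p = 0.828, adjusted 0.828 over the 7 relations of ADIPOQ) and Spearman's rho was 0.06 (permutation p = 0.788). The highest FABP4 levels of T0 and T2, in m12 and m21, stood beside 0.954 and 3.32 CPM of ADIPOQ, while in T1 the library m1 was the highest in both genes, at 132.9 CPM of FABP4 and 7.25 CPM of ADIPOQ. Within T1 r was 0.52 (n = 8) and within T2 it was 0.07 (n = 10), values given as a description. Endothelial markers, 9 genes, summed to 225.8 to 336.0 CPM in T0, 194.3 to 284.3 CPM in T1 and 174.5 to 269.3 CPM in T2. In T1 minus T0, T2 minus T1 and T2 minus T0, 0 of them were called, beside 6.91%, 27.6% and 16% of all genes. Negative values were found for 7, 6 and 9 of the 9 in these comparisons, with medians of -0.141, -0.208 and -0.265. The part of the endothelial markers in the FABP4 level was not tested.

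Other markers of fat cells were sparse in the authors' annotation. Of 18 listed, 4 had an identifier, and all 4 were tested. LPL, the lipase that frees fatty acids from circulating lipoproteins and is also made by muscle, rose by 1.03 ± 0.29 on the log2 scale between T0 and T1 (edgeR adjusted p = 0.0303) and fell by 0.91 between T1 and T2 (edgeR adjusted p = 0.00485). THRSP, a nuclear protein of lipogenic cells, was at -1.64 ± 0.63 in T1 minus T0 (edgeR adjusted p = 0.122), and PPARG and LIPE were not called. The LPL call in T1 minus T0 was lost without any 1 of m3, m8, m11, m12 and m13. It held in 7 of 13 other settings. The LPL call in T2 minus T1 held in all 23 fits without 1 library and in 12 of 13 other settings. Both LPL calls were lost with the slow minus fast score as a covariate.

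SCD, FASN, ACACA and ACLY varied together between libraries of the same time point. Log2 CPM minus the time point mean was correlated over the 23 libraries for all 28 pairs of the 8 genes, with 100000 shuffles of the libraries within time points. All 6 pairs among these 4 enzymes passed after adjustment over the 28 pairs, with Pearson's r from 0.63 to 0.84 (permutation, adjusted p from 0.00028 to 0.022) and Spearman's rho from 0.60 to 0.78 (permutation, adjusted p from 0.0014 to 0.0243). The closest pair was SCD and FASN, at r = 0.84 (permutation p = 1e-05, the smallest these shuffles can give), with r = 0.86 within T1 and 0.70 within T2. Without the 2 libraries farthest from the median of the first gene, r stayed between 0.53 and 0.79 over the 6 pairs. Of the 22 other pairs, 0 passed by either measure, with r from -0.39 to 0.45. ADIPOQ had r = 0.42 with SCD (permutation p = 0.0934, adjusted 0.218 over 7 relations) and r = 0.45 with FASN (permutation p = 0.0849, adjusted 0.218), and these were 0.17 and 0.13 without m10 and m12. At an unadjusted permutation p below 0.05 stood 0 of the 7 relations of ADIPOQ by r and 1 by rho, that with ACACA (rho = 0.49, permutation p = 0.0263, adjusted 0.184).

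**Figure D4:**
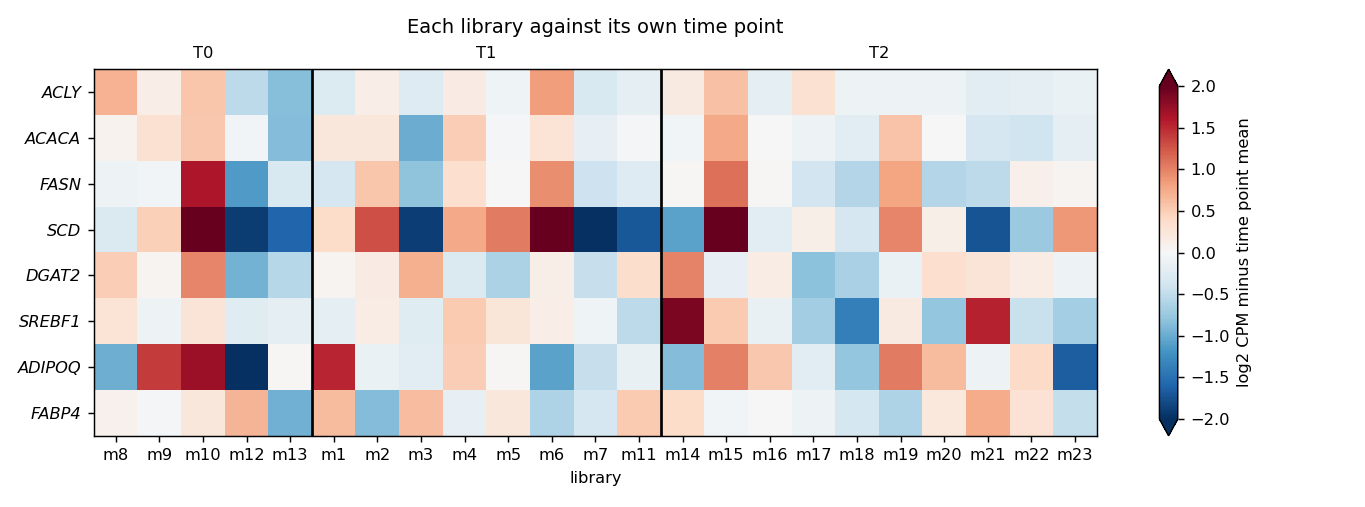
Log2 CPM of each gene in each library minus the mean of its time point, in colour from -2 (blue) to 2 (red), with libraries ordered by time point. The rows of ACLY, ACACA, FASN and SCD share their high libraries, such as m6 in T1 and m15 in T2, while m14 and m21 are high in SREBF1 and low in SCD.

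Some libraries high in ACLY, ACACA, FASN and SCD, such as m10, m6 and m15, were also high in fibroblast markers. The summed level of 9 such markers (collagens, DCN, LUM, POSTN and others) was 126.2 to 480.1 CPM in T0, 85.8 to 218.9 CPM in T1 and 107.5 to 360.5 CPM in T2. It was 480.1 in m9, 453.3 in m10, 218.9 in m6 and 360.5 CPM in m15. In m9, ACLY, ACACA, FASN and SCD were at 0.13, 0.30, -0.06 and 0.47 from their T0 means on the log2 scale. Between libraries of a time point, the mean log2 CPM of the list had r = 0.76 with ACLY, 0.72 with ACACA, 0.62 with FASN and 0.61 with SCD (permutation, adjusted p = 0.00172, 0.00172, 0.00936 and 0.00936 over 8 relations), and rho of 0.76, 0.70, 0.49 and 0.56. Without m12 and m15, the 2 farthest libraries, r was 0.70, 0.73, 0.47 and 0.51. DGAT2, ADIPOQ and FABP4 did not pass, and SREBF1 passed by rho (0.58, permutation, adjusted p = 0.00973) but not by r (0.39, adjusted p = 0.0837).

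Fibroblast markers also differed between time points. In T1 minus T0, 3 of the 9 were called, all lower (POSTN, COL3A1 and DCN), in T2 minus T1 it was 0, and in T2 minus T0 it was 1, POSTN, lower, beside 6.91%, 27.6% and 16% of all genes. Without 1 library at a time, the T1 minus T0 calls held in 22 of 23 fits for POSTN, 14 for COL3A1 and 15 for DCN, and the T2 minus T0 call of POSTN held in 13. The list's median log2 fold change was -0.93, 0.42 and -0.58 in these comparisons. With the list's mean as a covariate, chosen after seeing the data, ACACA in T2 minus T0 was -0.65 ± 0.17 (edgeR adjusted p = 0.0197) and in T2 minus T1 -0.87 ± 0.15 (edgeR adjusted p = 0.000194). In the same fit, T2 minus T0 was -0.86 for FASN (edgeR adjusted p = 0.0728), -1.17 for SCD (0.336) and -0.31 for ACLY (0.226). T2 minus T1 in this fit was -0.94 for FASN (edgeR adjusted p = 0.00847), -2.14 for SCD (0.0125) and -0.47 for ACLY (0.0136), and 5 of the 8 genes were called there, DGAT2 and ACACA included, in place of 2. Over all 11545 genes this fit called 3623 in T2 minus T1 in place of 3188, and 1082 in T2 minus T0 in place of 1851. Of 7 smooth muscle and pericyte markers, 4 were called in T2 minus T0, all lower (CSPG4, NOTCH3, RGS5 and PDGFRB). Beside them, 16% of all genes were called, 9.3% lower. MYH11 was at -0.84, TAGLN at 0.16 and ACTA2 at 0.05, and none of these was called. The part of the smooth muscle and pericyte markers in the result was not tested.

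By a fixed rule, the genes most like the 5 tested lipogenic genes, DGAT2 included, over the 23 libraries (Pearson's r of centred log2 CPM with their mean z score, 8834 genes compared) were FBLN2 (0.83), TNXB (0.80), AKAP12 (0.79), RBM23 (0.78), COL3A1 (0.78), ABI3BP (0.77), FGFR1 (0.77) and COL15A1 (0.77). Several of these encode matrix proteins: FBLN2 is a fibulin, TNXB a tenascin, and COL3A1 and COL15A1 are collagens. Those most like ADIPOQ and FABP4 together were PTGR1 (0.82), LIPE (0.79), CLU (0.71), CNPY3 (0.69), CHRAC1 (0.69), CENPQ (0.63), CCDC112 (0.63) and RTN3 (0.63). LIPE, hormone-sensitive lipase, is a fat cell gene of the marker list, at a mean of 2.4 CPM. The other tested genes of that list, LPL, PPARG and THRSP, were not among these 8. ADIPOQ and FABP4 had r = 0.06 with each other, so their mean z score is not a shared profile. The values share libraries and depth and are a description without a test.

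Calls among the other 11 tested genes of fatty acid synthesis went in both directions. Of these, 0 were called in T1 minus T0, 3 in T2 minus T1 and 2 in T2 minus T0, beside 6.91%, 27.6% and 16% of all genes, with medians of 0.08, 0.03 and -0.03. ACACB, the carboxylase at the mitochondrial surface whose malonyl-CoA holds back fatty acid oxidation, fell by 0.94 ± 0.12 on the log2 scale between T1 and T2 (edgeR adjusted p = 1.45e-05), from 50.8 ± 8.40 CPM (SD, n = 8) to 26.6 ± 5.67 CPM (SD, n = 10). In T2 minus T0 it was lower by a log2 of -0.52 (edgeR adjusted p = 0.0172). MID1IP1, which activates acetyl-CoA carboxylase, fell by 1.24 between T1 and T2 (edgeR adjusted p = 0.0101). ME1, the malic enzyme that supplies NADPH, moved the other way and rose by 0.76 ± 0.13 between T1 and T2 (edgeR adjusted p = 0.000243) and was higher in T2 than in T0 by 0.47 (edgeR adjusted p = 0.0389).

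Of 17 tested upstream genes of SREBP, ChREBP and AMPK control, 2 were called in T1 minus T0, 3 in T2 minus T1 and 2 in T2 minus T0, beside 6.91%, 27.6% and 16% of all genes. PRKAA2, the AMPK catalytic subunit of muscle, fell by 0.72 between T1 and T2 (edgeR adjusted p = 0.0154) and was at -0.83 in T2 minus T0 (edgeR adjusted p = 0.024). PRKAG1, a regulatory subunit, was higher in T2 than in T0 by 0.53 (edgeR adjusted p = 0.00501). PRKAG3 and PRKAB2 were lower in T1 than in T0 with edgeR adjusted p-values of 0.0476 and 0.0431, and those calls held in 6 and 14 of 23 fits that left out 1 library. PRKAG3 then rose by 0.74 between T1 and T2 (edgeR adjusted p = 0.0258), and MBTPS1, a protease that releases SREBP, fell by 0.26 (edgeR adjusted p = 0.0244).

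Sterol synthesis, the other branch under SREBP control, had 17 tested genes. Of these, 3 were called in T2 minus T1, 2 higher and 1 lower, beside 27.6% of all genes, 12.6% higher and 15.1% lower. NSDHL rose by 0.42 between T0 and T1 (edgeR adjusted p = 0.0417). Between T1 and T2, IDI1 rose by 1.11 (edgeR adjusted p = 0.0077), HSD17B7 rose by 0.93 (edgeR adjusted p = 0.0318) and MVD fell by 0.35 (edgeR adjusted p = 0.0392). Of 15 genes of elongation and desaturation, 5 had an identifier. HACD1, a dehydratase of fatty acid elongation that is most abundant in muscle, fell by 0.96 between T0 and T1 (edgeR adjusted p = 0.00803) and rose by 1.09 between T1 and T2 (edgeR adjusted p = 0.000184), and TECR, the reductase of the same cycle, rose by 0.54 between T1 and T2 (edgeR adjusted p = 0.0188).

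Among genes of triglyceride synthesis, GPAT3 and GK, like DGAT2, rose by T1 and fell by T2. Of 13 tested genes of triglyceride synthesis, 2 were higher and 1 lower in T1 than in T0, 3 were higher and 5 lower in T2 than in T1, and 1 was higher in T2 than in T0, beside 6.91%, 27.6% and 16% of all genes. GPAT3, a glycerol-3-phosphate acyltransferase at the first step, rose by 1.15 ± 0.21 between T0 and T1 (edgeR adjusted p = 0.00293) and fell by 0.91 between T1 and T2 (edgeR adjusted p = 0.000459). Its level was 10.6 ± 1.82 CPM in T0 (SD, n = 5), 23.5 ± 6.40 CPM in T1 (SD, n = 8) and 12.51 ± 4.08 CPM in T2 (SD, n = 10). GPAM, the mitochondrial enzyme of the same step, fell by 1.98 ± 0.34 between T1 and T2 (edgeR adjusted p = 0.000313), from 32.1 ± 18.5 CPM to 8.03 ± 3.40 CPM (SD, n = 8 and n = 10). GK, glycerol kinase, rose by 0.65 between T0 and T1 (edgeR adjusted p = 0.0196) and fell by 0.66 between T1 and T2 (edgeR adjusted p = 0.00106).

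DGAT1, the other enzyme of the last step, moved against DGAT2 between T1 and T2. It rose by 0.42 ± 0.10 there (edgeR adjusted p = 0.0021), while DGAT2 fell by 1.10. In T1 minus T0, DGAT1 was at -0.06 (edgeR adjusted p = 0.812), while DGAT2 rose by 1.24. In T2 minus T0, DGAT1 was higher by 0.36 (edgeR adjusted p = 0.03), and DGAT2 was at 0.14 and not called. GPD1, which supplies glycerol-3-phosphate, fell by 0.61 between T0 and T1 (edgeR adjusted p = 0.0243) and rose by 0.62 between T1 and T2 (edgeR adjusted p = 0.00194). AGPAT2 and AGPAT3 were the other genes lower in T2 than in T1, at -0.78 and -0.53, and AGPAT1 was higher at 0.30. The T2 minus T1 values of DGAT1, GPD1 and the AGPAT genes were picked out after their values were seen. With the slow minus fast score as a covariate, GPAT3, GPAM, GK, AGPAT2, GPD1 and AGPAT1 were no longer called in T2 minus T1, while DGAT1 and AGPAT3 still were.

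Lipid droplet and lipolysis genes gave calls in both directions. Of 9 tested, 2 were higher in T1 than in T0, 1 was higher and 3 were lower in T2 than in T1, and 2 were higher and 1 lower in T2 than in T0, beside the same shares of all genes. PLIN2, the coat protein of droplets in muscle, rose by 1.45 ± 0.32 between T0 and T1 (edgeR adjusted p = 0.00901), from 31.0 ± 8.13 CPM to 84.4 ± 35.3 CPM (SD, n = 5 and n = 8), and was 0.94 higher in T2 than in T0 (edgeR adjusted p = 0.0399). PNPLA2, the first triglyceride lipase, rose by 0.53 between T0 and T1 (edgeR adjusted p = 0.018). MGLL, the last lipase of the chain, fell by 0.61 between T1 and T2 (edgeR adjusted p = 0.00436) and was at -0.79 in T2 minus T0 (edgeR adjusted p = 0.00576). BSCL2, the seipin gene of droplet formation, rose by 0.67 between T1 and T2 (edgeR adjusted p = 0.0054) and was 0.62 higher in T2 than in T0 (edgeR adjusted p = 0.0373), and FITM2 fell by 0.80 between T1 and T2 (edgeR adjusted p = 0.0141). The fourth call in T2 minus T1, named after its value was seen, was G0S2, an inhibitor of PNPLA2, at -1.04. Over the 23 fits that left out 1 library, calls that held in the fewest were AGPAT1 in T2 minus T1 (12 fits), PLIN2 in T2 minus T0 (13), MVD in T2 minus T1 (14), and NSDHL in T1 minus T0 and ME1 and BSCL2 in T2 minus T0 (15 each), beside PRKAG3 and PRKAB2 above. The calls of GPAT3, PLIN2 and HACD1 in T1 minus T0 and of GPAM, GPAT3, GK, DGAT1, ACACB and ME1 in T2 minus T1 held in all 23. With the slow minus fast covariate, FITM2, G0S2, IDI1, HSD17B7, MVD, PRKAG3 and MBTPS1 were no longer called in T2 minus T1. BSCL2, MGLL, ACACB, ME1, MID1IP1, PRKAA2, HACD1 and TECR still were. In T1 minus T0 that fit lost the calls of GPAT3, GK, GPD1, PLIN2, PNPLA2, HACD1, NSDHL, PRKAG3 and PRKAB2. The plot of the related genes shows all tested members of these lists.

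**Figure D5:**
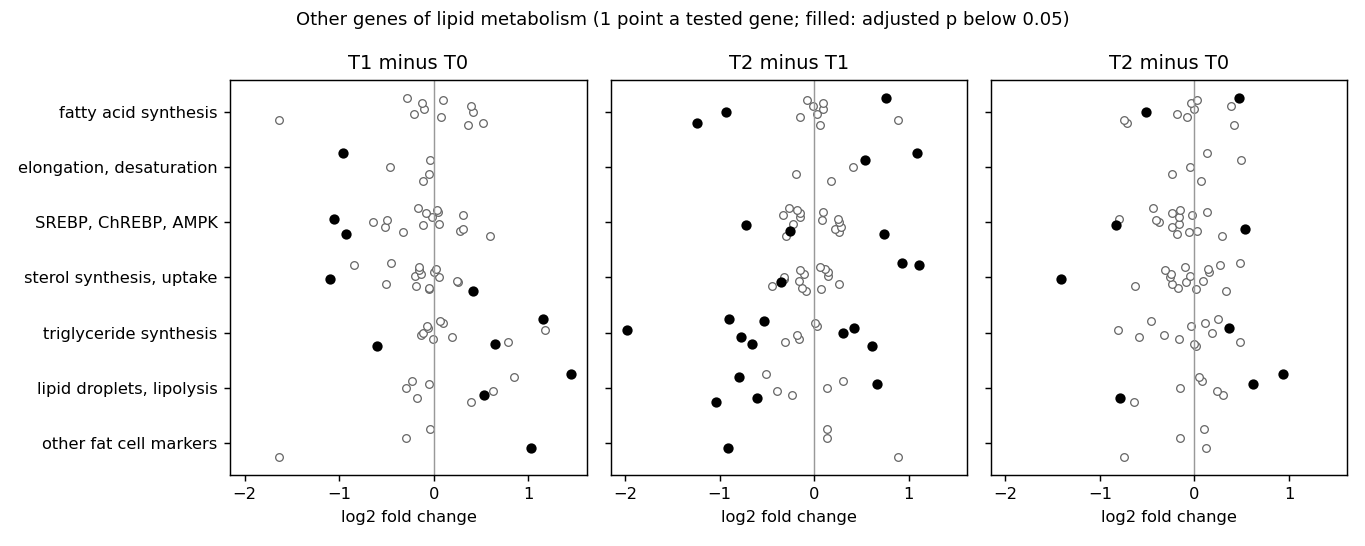
Log2 fold changes of the tested genes of 7 lists of lipid metabolism and fat cell markers, 1 point a gene, in the 3 comparisons; filled points passed an adjusted p of 0.05. In T2 minus T1 the triglyceride list holds the most filled points, 8 of 13, with GPAM at -1.98.

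The sexes were compared with time point in the model. Of all genes 0% were called (719 of 11545 at an unadjusted p below 0.05, and 3 called by limma voom), and of the 8 genes none was. SCD was -1.43 ± 0.60 in male minus female libraries (edgeR adjusted p = 0.776, unadjusted p = 0.0271) and FASN -0.72 ± 0.26 (edgeR adjusted p = 0.752, unadjusted p = 0.011). Without m10, a female T0 library, they were -0.72 and -0.45 with unadjusted p-values of 0.224 and 0.0684 from edgeR. The interaction of sex and time point called 0 genes of all (305 at an unadjusted p below 0.05, with T0 holding 2 female libraries).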

How the data were processed

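RNA of 23 needle biopsies was sequenced with 50 cycles and 6 technical repetitions, per the labels, from 300 ng of total RNA with an integrity number above 8.5. The deposited tables hold expected counts per gene and transcript, whole numbers in the files, and the submitters' processing notes name FastQC, STAR, RSEM and DESeq2. The authors' comparison tables give, per the file headers, a log2 fold change with its standard error, a p-value and an adjusted p-value. They also hold the mean normalized count, a signal the authors averaged over libraries, per the file headers, which do not say over which ones. The letters of the comparisons were matched to time points by that mean. The median absolute log2 difference was 0.000639 for T1 minus T0, 0.0014 for T2 minus T1 and 0.00166 for T2 minus T0. A mean gives no direction. In the directions used here, the authors' log2 fold changes had correlations of 0.959, 0.978 and 0.985 with those of the edgeR fit. Their tables hold 9628 identifiers, 8842 with a symbol, and were the source of names and positions. SCD had values only in the T2 minus T1 table among those used here (log2 fold change -0.74, adjusted p = 0.0517, the authors' deposited table).

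The counts were fitted in edgeR 4.0.16 (robust quasi-likelihood F test, R 4.3.3) in 1 model of the 3 time points, with TMM scaling and filterByExpr (minimum count 10, minimum total 15), which kept 11545 genes with 99.93% of counts. P-values were adjusted by Benjamini-Hochberg over these genes, a gene was called below 0.05, and the SE was the absolute log2 fold change over the square root of F. Intervals of 95% are 1.96 SE to either side. Log2 CPM used a prior count of 2. Gene lengths were not used, so levels are not compared between genes. The genome build and the counting settings for strand are unknown, so reads of overlapping genes could not be separated. The symbols, lists and tests were chosen with earlier results of these data known. Named genes were the listed symbols, up to 3 called genes of each related list with the smallest p in each comparison, and the 8 genes most correlated with each group of members. Alternatives used median ratio factors, TMM without mitochondrially encoded genes, no filter, a fit that was not robust, DESeq2 1.42.0, limma voom (limma 3.58.1), sex as a covariate, only the 2 time points compared, each library left out in turn, m3 and m12 left out, and m14 and m21 left out. Chosen after seeing the data were leaving out m10 and m12 and 2 covariates, the fibroblast list and the slow minus fast score. A result of the sterol list is not reported here. The tests were also tested on simulated data. Figures were drawn with matplotlib 3.10.9.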

Additional observations from a re-analysis of the deposited data

Results flagged for a closer look

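The 8 genes were searched at 3 time points, 24 groups in all, for a library standing apart from the rest of its group by Dixon's test, and 2 groups held one, where chance gives about 1 in 20. ACACA in T1 was lowest in m3, at 4.205 CPM, and the next library had 7.602 CPM. ACLY in T1 was highest in m6, at 12.82 CPM, and the next library had 8.005 CPM. Without m6, ACLY in T2 minus T1 was -0.08 (edgeR adjusted p = 0.761).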

How the results depend on the processing

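Calls of DGAT2 in T1 minus T0, of DGAT2 and ACACA in T2 minus T1 and of ACACA in T2 minus T0 held in all 23 fits that left out 1 library. The number of genes called of the 8 was 1 to 2 in T1 minus T0 over these fits (2 without m1 or m12, when ADIPOQ was added), 2 in T2 minus T1, and 1 to 4 in T2 minus T0 (1 without m10). In T1 minus T0, where 1 was called, it was 0 without m3 and m12 and 0 with the slow minus fast covariate. In T2 minus T1, where 2 were called, it was 5 with the fibroblast covariate and 4 with the slow minus fast covariate. In T2 minus T0, where 4 were called, it was 2 without a filter on low counts, 2 without m14 and m21, 1 without m10 and m12, 1 with the fibroblast covariate and 2 with the slow minus fast covariate. Of 13 settings beside the fits without 1 library, ACACA in T2 minus T0 was called in 13, FASN in 11, SCD in 6 and ACLY in 5. The cause was not tested.

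Values that changed sign belonged to comparisons that were not called. For T1 minus T0 the fibroblast covariate gave 0.978 for SCD, 0.085 for FASN, 0.219 for ACACA, 0.163 for ACLY, -0.056 for FABP4 and 0.394 for SREBF1. The slow minus fast covariate gave 0.831 for SCD, 0.097 for FASN, 0.243 for ACACA, -0.558 for FABP4 and 0.25 for SREBF1. SCD was 0.406 without m10 and m12, and FABP4 was -0.13 under limma voom. SREBF1 without m14 and m21 was -0.361 in T2 minus T1 and -0.462 in T2 minus T0, and under voom -0.137 and -0.245. DGAT2 in T2 minus T0 was -0.015 without m3 and m12, -0.061 without m14 and m21 and -0.082 under voom. Over the fits without 1 library, T1 minus T0 ran from -1.656 to 0.663 for SCD and from -0.087 to 0.281 for FABP4, and T2 minus T0 from -0.021 to 0.459 for DGAT2 and from -0.09 to 0.35 for SREBF1. Counts of all genes called over these fits ran from 346 (without m10) to 904 in T1 minus T0, from 2665 to 3775 in T2 minus T1 and from 986 (without m13) to 2414 in T2 minus T0. No paired analysis was possible because the labels number the libraries and do not say which horse gave each one.

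Depth limits SCD and ADIPOQ most, with 2161 and 1807 counts over all libraries. T0 had 5 libraries, of which m10 and m12 lay at opposite ends for 4 of the 8 genes.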

Other observations

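Beside the fibroblast and pericyte markers described above, other cell types were read through few markers. Of 5 tested macrophage markers, 1 was called in T2 minus T1, CSF1R, lower (log2 fold change -0.77, edgeR adjusted p = 0.0404). In that comparison 4 of the 5 had negative values and 1 a positive one. The summed level of the 5 was 6.41 to 16.8 CPM in T0, 6.30 to 16.6 CPM in T1 and 5.19 to 14.5 CPM in T2. PTPRC, the only 1 of 8 genes on a lymphocyte list with an identifier, was at -1.10 in T2 minus T1 (edgeR adjusted p = 0.0262). This 1 gene is not read as a level of lymphocytes. Erythroid and skin markers had no identifier under their symbols. Smooth muscle and pericyte markers summed to 94.98 to 449.5 CPM in T0, 88.0 to 156.0 CPM in T1 and 100.5 to 215.8 CPM in T2. The library m9 was the highest of T0. Of the 7 tested, 1 was called in T2 minus T1, RGS5, a pericyte gene, at -0.65 (edgeR adjusted p = 0.00434). In that comparison 4 of the 7 had negative values and 3 positive ones, MYH11 at 0.96, TAGLN at 0.64 and ACTA2 at 0.60. Of 8 skeletal muscle fibre markers, 3 were called lower in T2 than in T1, TCAP, TTN and NEB, which encode proteins of the sarcomere. Over all tested genes, 27.6% were called in T2 minus T1, 12.6% higher and 15.1% lower.

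At the level of transcripts, 7 of the 8 genes have 1 transcript in the deposited table, with the count of the gene in every library, so an isoform change could not be seen for them. FASN has 2 transcripts, which were not matched by name.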
